A study of Mus musculus with 6 samples.

Results

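The genes described here encode retromer subunits and the sorting nexins that return receptors from endosomes. They are Vps26a, Vps26b, Vps29, Snx1, Snx2, Snx3, Snx5, Snx6, Snx12 and Snx27, 10 genes chosen by name from a table of 23067, and all 10 were found. Their messenger RNA was measured by bulk RNA sequencing of dorsal striatum, the input stage of the basal ganglia, in mice at postnatal day 21. Mice homozygous for a knock-in allele of the kinase gene Lrrk2 (genotype Lrrk2G2019S/G2019S, 3 samples) were compared with wild-type mice (genotype Lrrk2WT/WT, 3 samples), with 1 library per sample and every sample titled male. The G2019S change in LRRK2 is a cause of familial Parkinson's disease. No treatment, promoter or Cre driver is named in the labels.

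Retromer is a coat of the endosome. A trimer of VPS35, a VPS26 protein and VPS29 holds cargo receptors out of the path to the lysosome and sends them to the Golgi or back to the cell surface. Sorting nexins bind the phosphoinositides of endosomes through a PX domain, and those with a BAR domain bend the membrane into the tubules that carry cargo away. In neurons this route recycles neurotransmitter receptors, AMPA receptors among them, and a change in VPS35, the partner of the proteins described here, is itself a cause of familial Parkinson's disease.

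None of the 10 genes differed detectably between genotypes. In a limma model of log2(FPKM + 1) over the 14156 genes whose mean reached 1 FPKM (fragments per kilobase of transcript, scaled to the library's total), 0 of the 10 were called at an adjusted p under 0.05, against 0.0212% of all genes tested. At an unadjusted p under 0.05 the count was also 0, against 4.27% of all genes. In 0 of the 10 did the 3 knock-in libraries lie wholly above or below the 3 wild-type libraries, against 9.51% of all genes. The differences on the log2 scale, knock-in minus wild type, lay between -0.08 for Snx12 and 0.04 for Snx2, with 6 positive, 4 negative and a median of 0.0081, beside a median of -0.0140 over all genes tested. The 95% intervals of 9 of the 10 reached no lower than 0.835-fold and no higher than 1.16-fold. The interval of Snx3 ran from 0.571-fold to 1.81-fold. Fold bounds of intervals, here and below, are of FPKM + 1 rather than of FPKM itself. In the 9 genes, changes beyond 0.835-fold or 1.16-fold lay outside the intervals. The widths differed between genes, and the smallest change detectable with 3 samples per group was not determined.

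VPS26 is the arm of the trimer that binds VPS35 and touches cargo, and it comes in alternative forms encoded by Vps26a and Vps26b. The starts of both genes are shown because their levels are set against each other below. The windows hold 250 bases before and 50 after an annotated start (RefSeq, GRCm38.p6, read 5′ to 3′ on the minus strand, chr10:62486549-62486848 for Vps26a and chr9:27030045-27030344 for Vps26b). Capitals mark TCACGTGA, the core of the CLEAR element bound by TFEB, a factor known for switching on lysosomal genes.
Vps26a: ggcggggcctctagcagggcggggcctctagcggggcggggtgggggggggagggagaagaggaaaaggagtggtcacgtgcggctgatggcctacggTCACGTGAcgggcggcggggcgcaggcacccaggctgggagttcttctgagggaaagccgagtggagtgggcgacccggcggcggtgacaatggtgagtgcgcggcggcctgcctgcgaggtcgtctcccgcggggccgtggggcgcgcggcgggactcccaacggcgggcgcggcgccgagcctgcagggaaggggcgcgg
Vps26b: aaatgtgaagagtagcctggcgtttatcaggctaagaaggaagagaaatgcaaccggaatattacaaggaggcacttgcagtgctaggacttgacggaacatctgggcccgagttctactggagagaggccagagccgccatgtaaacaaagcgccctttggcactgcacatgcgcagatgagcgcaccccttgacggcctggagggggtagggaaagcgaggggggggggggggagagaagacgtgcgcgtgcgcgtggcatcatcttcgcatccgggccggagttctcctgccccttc
The marked core begins at position -152 relative to the start used for the printed Vps26a window. A window at the other annotated start of Vps26a (chr10:62486756-62487055, minus strand) held 1 further copy at another place, at position -183 from that start. That other start lies upstream of the first and is the outer end of the gene in GENCODE M21 (chr10:62455235-62486805). The marked core therefore lies downstream of it, inside the gene as annotated there. Of the 10 genes, 8 had a promoter window in the table, and Vps26a was the 1 gene among them that held the core, which occurred in 1.125% of 27025 genes. The shorter E-box CACGTG, which lies within the core, was found for 2 of the 8, Vps26a and Snx5, and in 8.09% of all genes. The cAMP response element TGACGTCA was found for 0 of the 8 and in 2.03% of all genes. All 3 motifs are the same on both strands, and a match describes the letters of a window, not binding.

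Vps26b was the more abundant form throughout. Its level was 22.4, 22.2 and 22.9 FPKM in the knock-in libraries, replicates 1 to 3 in order as throughout, against 22.9, 23.1 and 24.0 FPKM in the wild-type libraries. The groups met only at their edges, since the highest knock-in level of 22.94 FPKM was just above the lowest wild-type level of 22.90 FPKM. The log2 difference was -0.05 (SE 0.05, adjusted p = 0.997 in limma). Vps26a stood at 10.05, 10.2 and 10.99 FPKM in knock-in and at 10.2, 10.5 and 10.5 FPKM in wild type. The wild-type values lay inside the knock-in range, with means of 10.4 ± 0.511 FPKM in knock-in and 10.4 ± 0.204 FPKM in wild type (SD, n = 3 each) and a log2 difference of 0.00079 (SE 0.06). Vps26b made up 67.6% to 69.5% of the summed FPKM of the pair in the 6 libraries. The ratio of Vps26a to Vps26b within a library averaged 0.462 ± 0.0151 in knock-in and 0.445 ± 0.00645 in wild type (SD, n = 3 each). It was highest in knock-in replicate 3, at 0.479, and lowest in wild-type replicate 3, at 0.439, and knock-in replicate 1, at 0.449, lay within the wild-type range of 0.439 to 0.452. After quantile normalization the log2 difference of this ratio was 0.083 and the groups did not overlap (exact permutation p = 0.1, the smallest that 3 samples against 3 allow).

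Vps29, which encodes the subunit with a phosphoesterase fold that binds the Rab7 regulator TBC1D5, was at 12.3, 13.4 and 13.5 FPKM in knock-in and at 13.0, 12.3 and 12.6 FPKM in wild type. Knock-in replicates 2 and 3 lay above the wild-type range and knock-in replicate 1 just below it. The means were 13.1 ± 0.656 FPKM in knock-in and 12.6 ± 0.347 FPKM in wild type (SD, n = 3 each), with a log2 difference of 0.04 (SE 0.06). The partner of these subunits, Vps35, which holds the trimer together, averaged 14.9 ± 1.21 FPKM in knock-in and 14.0 ± 0.605 FPKM in wild type (SD, n = 3 each). Vps35 was not called either, at a log2 difference of 0.08 (SE 0.07, adjusted p = 0.997 in limma). That value was 0.019 when knock-in replicate 3, the highest library, was left out. On this scale, which is per length, the Vps29 and Vps35 transcripts lay between those of Vps26a and Vps26b.

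**Figure D1:**
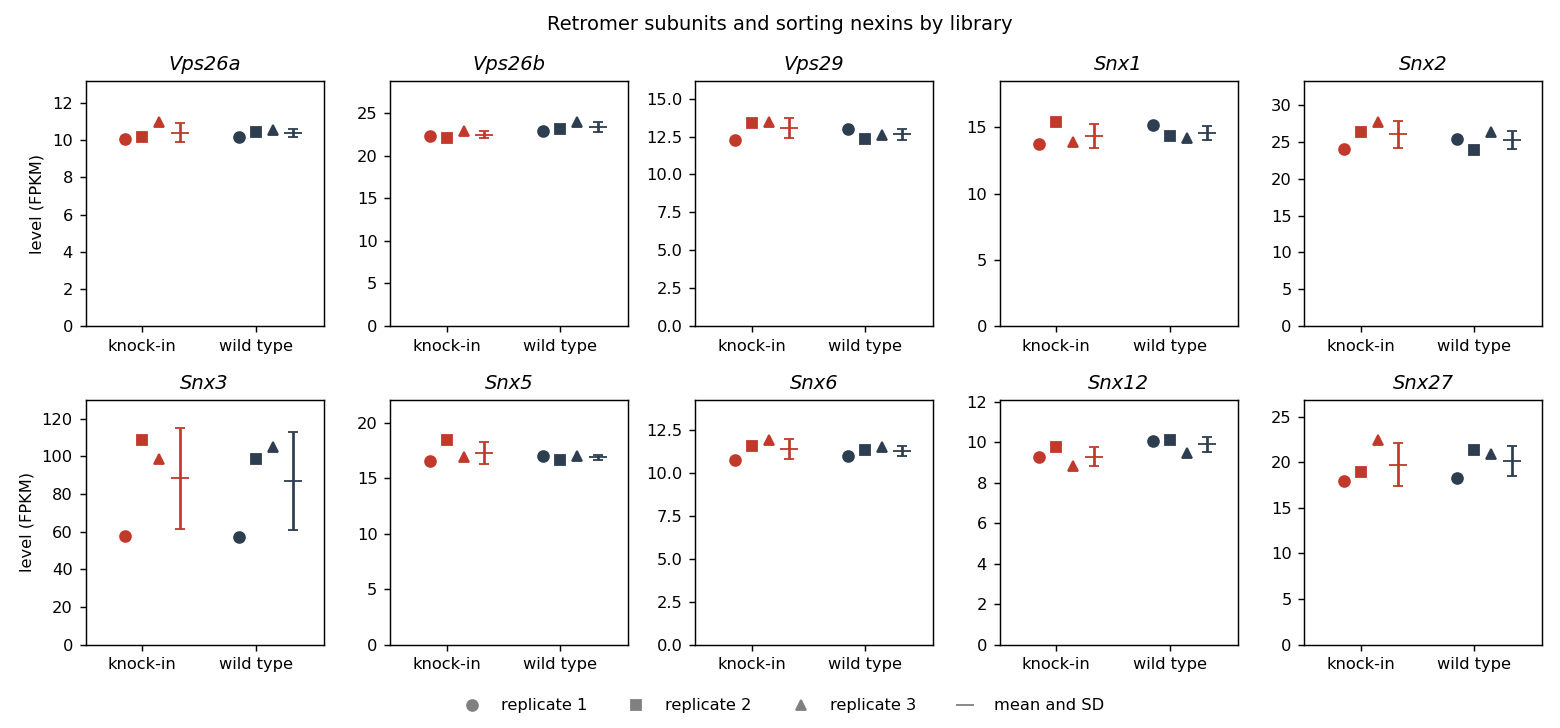
Level in FPKM (vertical axes, from 0) of each gene in the 3 knock-in libraries (red, left) and the 3 wild-type libraries (dark, right), with symbols for the replicate number and bars for the mean and SD. The groups overlap in all 10 panels, and in Snx3 replicate 1 of each genotype sits near 57 FPKM, below the other 4 libraries.

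The tubule-forming nexins work as pairs of a SNX1 or SNX2 protein with a SNX5 or SNX6 protein, all 4 with BAR domains. Snx2 was the most abundant of them, at 24.1, 26.3 and 27.7 FPKM in knock-in and 25.4, 24.0 and 26.4 FPKM in wild type. Snx1 stood at 13.8, 15.4 and 13.9 FPKM in knock-in and at 15.2, 14.4 and 14.2 FPKM in wild type. The wild-type values of Snx1 lay inside the knock-in range, and those of Snx2 reached just below it. The log2 differences were 0.04 for Snx2 (SE 0.07) and -0.02 for Snx1 (SE 0.06). The ratio of Snx1 to Snx2 ranged from 0.502 in knock-in replicate 3 to 0.599 in wild-type replicates 1 and 2, with means of 0.552 ± 0.0446 in knock-in and 0.578 ± 0.0361 in wild type (SD, n = 3 each).

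Snx5, whose protein recognises cargo tails such as that of the mannose 6-phosphate receptor, was at 16.5, 18.4 and 16.9 FPKM in knock-in and at 17.0, 16.6 and 17.0 FPKM in wild type. Knock-in replicate 2 alone stood above the rest. Snx6, its close relative, was at 10.8, 11.6 and 11.9 FPKM in knock-in and at 10.97, 11.3 and 11.5 FPKM in wild type, with the wild-type values inside the knock-in range. The log2 differences were 0.03 for Snx5 and 0.02 for Snx6 (SE 0.06 each). The ratio of Snx5 to Snx6 averaged 1.52 ± 0.0858 in knock-in and 1.498 ± 0.0420 in wild type (SD, n = 3 each).

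Snx3 and Snx12 encode small nexins with a PX domain and no BAR domain. SNX3 recruits retromer to early endosomes and, with it, recycles Wntless, the carrier of Wnt ligands. Snx3 stood at 57.6, 108 and 98.5 FPKM in knock-in and at 56.9, 98.6 and 105 FPKM in wild type. The libraries formed 2 tight levels that did not follow genotype. Replicate 1 of each genotype lay at 56.9 and 57.6 FPKM, and the other 4 libraries lay between 98.5 and 108 FPKM, on average 1.79 times as high. Of the 14156 genes tested, 706 had both libraries numbered 1 below the other 4, and the gap of 0.76 on the log2(FPKM + 1) scale in Snx3 was the widest of these, a comparison chosen after the values were seen. GENCODE M21 lists 3 protein-coding Snx3 transcripts, of 1401, 1057 and 753 bases, so that the longest is 1.86 times the shortest. FPKM divides by transcript length, and whether reads were assigned to different transcripts in different libraries was not tested.

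Because of this split the SD of Snx3 was wide in both groups, with means of 88.2 ± 26.9 FPKM in knock-in and 86.8 ± 26.0 FPKM in wild type (SD, n = 3 each). Between genotypes Snx3 differed by 0.02 on the log2 scale (SE 0.33, adjusted p = 0.997 in limma). Without both libraries numbered 1, an alternative added after the data were seen, Snx3 averaged 103 FPKM in knock-in and 102 FPKM in wild type (n = 2 each). Its log2 difference was then 0.02 (SE 0.10), with a 95% interval of 0.851-fold to 1.21-fold. Both libraries left out were the low ones for Snx3, so the smaller error follows from that choice and is no further evidence.

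Snx12, the closest relative of Snx3, lies on the X chromosome (chrX:101097786-101222563, GRCm38, minus strand). It stood at 9.27, 9.77 and 8.82 FPKM in knock-in and at 10.1, 10.1 and 9.48 FPKM in wild type. Knock-in replicates 1 and 3 lay below all wild-type libraries, and knock-in replicate 2 lay within their range. The means of 9.29 ± 0.472 FPKM in knock-in and 9.88 ± 0.347 FPKM in wild type (SD, n = 3 each) gave the difference farthest from 0 among the 10 genes, -0.08 (SE 0.06, unadjusted p = 0.222, adjusted p = 0.997 in limma), with an interval from 0.856-fold to 1.04-fold. Xist, the RNA of the inactive X chromosome normally seen in females, was at 30.8, 27.2 and 39.3 FPKM in knock-in and at 31.4, 33.02 and 31.6 FPKM in wild type, although every sample is titled male. The part of sex in the level of Snx12 was not tested. The ratio of Snx3 to Snx12 followed the split of Snx3, at 6.22, 11.1 and 11.2 in knock-in and 5.65, 9.77 and 11.1 in wild type.

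**Figure D2:**
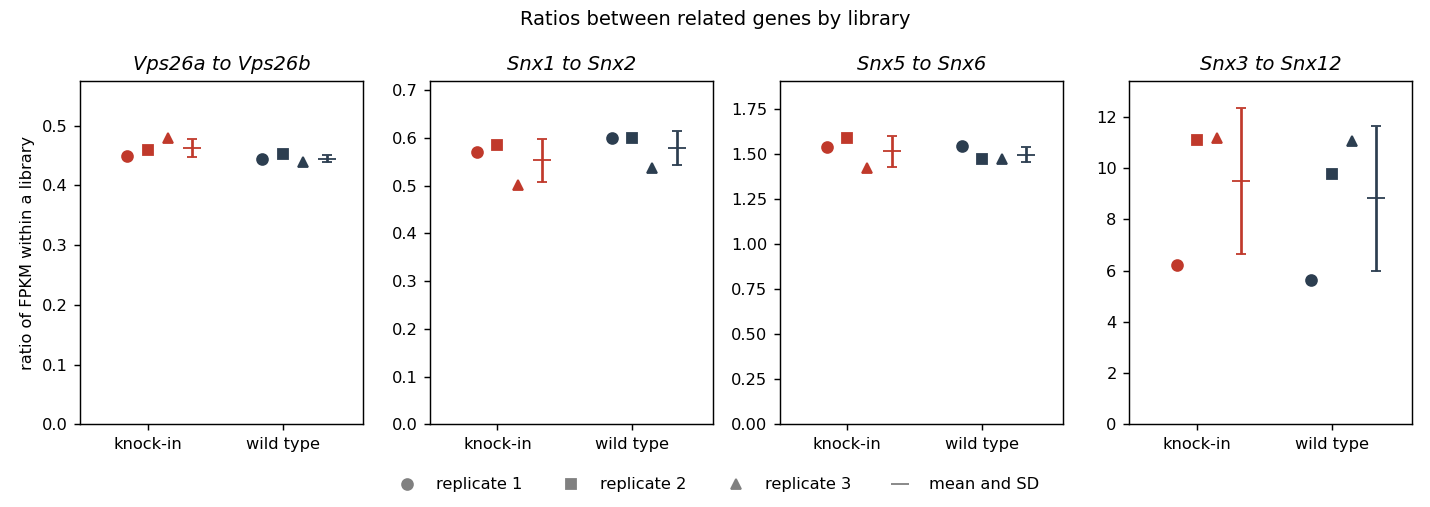
Ratio of FPKM between related genes within each library (vertical axes, from 0), for the 3 knock-in (red, left) and 3 wild-type (dark, right) libraries, with symbols for the replicate number and bars for the mean and SD. The Vps26a to Vps26b ratio stays between 0.439 and 0.479, while the Snx3 to Snx12 ratio is lowest in replicate 1 of each genotype, at 6.22 and 5.65.

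The ratios of the 4 related pairs were tested between genotypes, since a scaling of the whole library cancels in them. The exact permutation test was two-sided, and its smallest possible p with 3 samples against 3 is 0.1. No ratio could therefore reach p under 0.05, and the test cannot decide whether a ratio differed. The log2 differences, knock-in minus wild type, were 0.05 for Vps26a to Vps26b (exact p = 0.2), -0.07 for Snx1 to Snx2 (exact p = 0.5), 0.02 for Snx5 to Snx6 (exact p = 0.9) and 0.11 for Snx3 to Snx12 (exact p = 0.5). Adjusted over the 4 ratios, the exact p-values were 0.667, 0.667, 0.9 and 0.667.

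Snx27 joins retromer to receptors at the synapse, since its PDZ domain binds the tails of receptors such as the beta-2 adrenergic receptor and carries them, with AMPA receptors, to the plasma membrane. It stood at 17.9, 18.9 and 22.4 FPKM in knock-in and at 18.3, 21.3 and 20.9 FPKM in wild type. It was lowest in replicate 1 of each genotype and in knock-in replicate 2, and highest in knock-in replicate 3. The means were 19.8 ± 2.36 FPKM in knock-in and 20.2 ± 1.67 FPKM in wild type (SD, n = 3 each), a log2 difference of -0.03 (SE 0.10) with an interval from 0.835-fold to 1.15-fold. The 3 libraries with the lowest Snx27 were the 3 with the highest level of Slc17a7, which encodes a glutamate transporter of synaptic vesicles in cortical neurons and was at 29.9, 25.2 and 3.41 FPKM in knock-in and at 10.9, 3.55 and 2.73 FPKM in wild type. Neurod6, a transcription factor of cortical excitatory neurons, had levels of 3.34, 3.10 and 0.365 FPKM in knock-in and at 0.839, 0.278 and 0.129 FPKM in wild type, and so was also highest in those 3 libraries. The summed FPKM of 10 cortical markers ran from 908 to 1142 in knock-in and from 893 to 1002 in wild type, but most of that sum was Nrgn, at 857 to 1047 FPKM in knock-in and 845 to 936 FPKM in wild type, which striatal neurons also express. Of the 10, 7 reached a mean of 1 FPKM. With the mean log2 level of these 7 as a covariate the Snx27 difference turned to 0.13 (SE 0.06, adjusted p = 0.544 in limma), with an interval from 0.983-fold to 1.21-fold. The same covariate moved the difference of Snx3 to 0.37, that of Snx2 to 0.11 and that of Vps35 to 0.18, and none of the 10 genes was called with it. In bulk tissue, fewer cells of a type and less RNA per cell cannot be told apart.

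**Figure D3:**
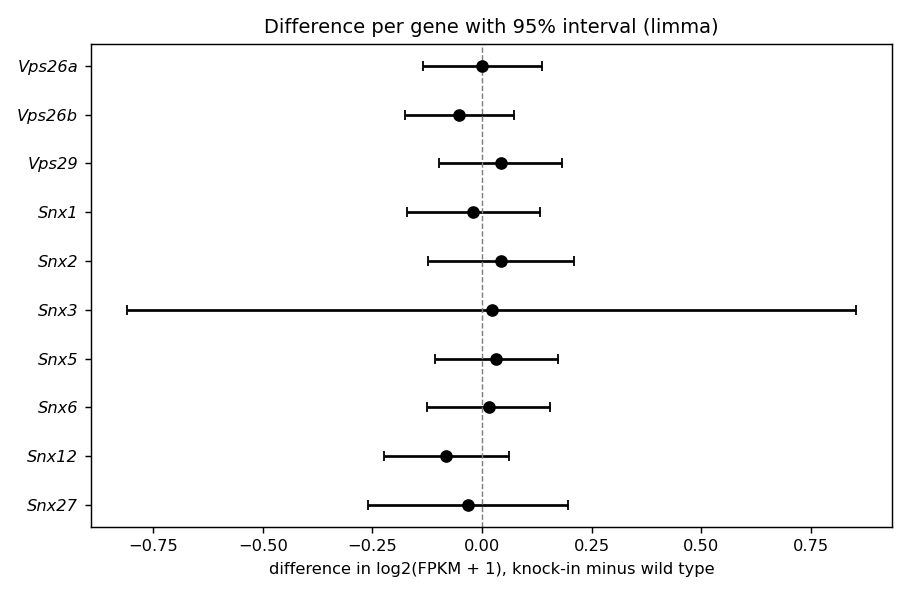
Difference in log2(FPKM + 1), knock-in minus wild type (horizontal axis), for each gene, with points for the limma estimate and bars for its 95% interval. Every interval spans 0, and that of Snx3 is the widest, from -0.81 to 0.85.

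All 10 genes were well expressed, between the 65.6 and 97.2 percentile of the genes tested by mean FPKM. The order of mean levels over the 6 libraries was Snx3 (87.5 FPKM), Snx2 (25.6 FPKM), Vps26b (22.9 FPKM), Snx27 (19.96 FPKM), Snx5 (17.1 FPKM), Snx1 (14.5 FPKM), Vps29 (12.8 FPKM), Snx6 (11.3 FPKM), Vps26a (10.4 FPKM) and Snx12 (9.58 FPKM). The ranges over libraries overlapped for the neighbours Snx2 and Vps26b, Vps26b and Snx27, Snx27 and Snx5, Snx6 and Vps26a, and Vps26a and Snx12. They did not overlap for Snx3 and Snx2, Snx5 and Snx1, Snx1 and Vps29, or Vps29 and Snx6.

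Most of the 10 were held within narrow limits. The coefficient of variation over the 6 libraries was lowest for Vps26b, at 2.83%, and was 5.70% or less for all but Snx27 (9.23%) and Snx3 (27.1%). For 8 of the 10 the residual SD on the log2 scale was below the median of tested genes within a factor of 2 in level. Vps26b stood at the 2.78 percentile of 3270 such genes, and Snx3 at the 98.6 percentile of 828 such genes. Knock-in replicate 3 had the highest value of 5 of the 10 genes, Vps26a, Vps29, Snx2, Snx6 and Snx27, and the lowest of Snx12. Knock-in replicate 1 had the lowest value of 6, Vps26a, Vps29, Snx1, Snx5, Snx6 and Snx27.

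The libraries were alike as a whole, with correlations over genes of 0.983 to 0.990 on the log2 scale, and FPKM sums of 314146 to 335508. Lrrk2 averaged 11.9 ± 0.579 FPKM in knock-in and 11.3 ± 0.625 FPKM in wild type (SD, n = 3 each), a level that tells nothing of the allele, which changes a codon. The striatal label held, as all 10 markers of projection neurons were at 1 FPKM or more and their summed FPKM was 2763 to 3063 in knock-in and 2769 to 2894 in wild type. The same sum was 2302 to 2843 in knock-in and 2855 to 3251 in wild type for 7 markers of myelinating oligodendrocytes, 14.5 to 20.4 in knock-in and 21.5 to 24.6 in wild type for 7 ependymal markers, and 761 to 1479 in knock-in and 1136 to 1445 in wild type for 5 blood genes. The oligodendrocyte and ependymal sums were lower in every knock-in library than in any wild-type library, while the blood sums overlapped. The lowest oligodendrocyte and blood sums, 2302 and 761 FPKM, were both in knock-in replicate 3. Ttr, the defining gene of choroid plexus, reached 374 FPKM in 1 library, wild-type replicate 2, and elsewhere ran from 2.12 to 16.2 FPKM. The part of this makeup in the levels above, beyond the cortical covariate, was not tested.

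The genes that work around retromer were described by list, each by its count of called genes and its median, beside the median of -0.0140 and the 0.0212% called over all genes. Counts of genes whose groups did not overlap stand against 9.51% of all genes tested. Of the genes tested in these 5 lists 0 were called by limma, and 0 had an unadjusted p under 0.05.

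Retriever and the CCC complex form a parallel recycling coat for cargo that SNX17 selects. Of 15 genes on the list 14 were matched and tested, 11 higher and 3 lower in knock-in, with a median log2 difference of 0.02 and 1 of 14 genes whose groups did not overlap, a share near the 9.51% of all genes. That gene was Ccdc93, a CCC subunit, at 2.13, 2.02 and 2.28 FPKM in knock-in and 2.33, 2.52 and 2.40 FPKM in wild type, a log2 difference of -0.12 (SE 0.07, adjusted p = 0.997 in limma). Commd5, another CCC subunit, was at 12.3, 15.04 and 11.3 FPKM in knock-in and 12.3, 10.7 and 11.03 FPKM in wild type. It differed by 0.17 on the log2 scale, and by 0.059 when knock-in replicate 2 was left out.

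The WASH complex builds branched actin on endosomes and is recruited there by retromer. All 8 genes of its list, with the capping proteins, were tested, 3 higher and 5 lower, with a median of -0.03. In 3 of the 8 the groups did not overlap, against 9.51% of all genes. Washc5, the strumpellin subunit, was at 9.87, 9.83 and 9.97 FPKM in knock-in and 10.4, 10.3 and 10.6 FPKM in wild type. Washc4, known as SWIP, was at 3.91, 3.88 and 4.55 FPKM in knock-in and 3.86, 3.86 and 3.83 FPKM in wild type. The log2 difference was -0.07 in Washc5 and 0.07 in Washc4, and that of Washc4 was 0.015 when knock-in replicate 3, its 1 high library, was left out. Capza1, named after its values were seen, was the third. Capza2, another capping protein gene, had the smallest p of the list. Its log2 difference was 0.12 (SE 0.07, unadjusted p = 0.152, adjusted p = 0.997 in limma), and its groups overlapped.

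Among 20 other sorting nexins, all tested, 7 were higher and 13 lower, with a median of -0.05 and 3 of 20 whose groups did not overlap, against 9.51% of all genes. Snx18, a membrane-bending nexin of endocytosis and autophagy, was at 5.07, 5.52 and 4.497 FPKM in knock-in and 5.66, 5.72 and 5.76 FPKM in wild type, a log2 difference of -0.16 (unadjusted p = 0.0699, adjusted p = 0.997 in limma). Snx30 was at 6.58, 6.58 and 6.62 FPKM in knock-in and 6.87, 7.16 and 7.14 FPKM in wild type, a log2 difference of -0.08. Snx14, named after its values were seen, was the third.

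Of 16 genes that place or regulate retromer, 15 were tested, 6 higher and 9 lower, with a median of -0.02, and the groups of 3 of the 15 did not overlap, against 9.51% of all genes. Pik3r4, which encodes the VPS15 subunit of the endosomal PI 3-kinase, was at 6.96, 6.46 and 7.16 FPKM in knock-in and 7.37, 7.63 and 7.70 FPKM in wild type, a log2 difference of -0.125 (unadjusted p = 0.0739, adjusted p = 0.997 in limma). Ehd1, an ATPase of recycling tubules, was at 13.6, 13.6 and 12.1 FPKM in knock-in and 14.3, 13.8 and 14.2 FPKM in wild type, a log2 difference of -0.10. Rab5b, named after its values were seen, was the third.

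Of 20 cargo receptors 18 were tested, 7 higher and 11 lower, with a median of -0.04 and 0 without overlap. Kcnj9, the GIRK3 potassium channel subunit that SNX27 binds, was at 13.2, 10.7 and 9.47 FPKM in knock-in and 10.1, 8.65 and 9.60 FPKM in wild type, a log2 difference of 0.21, and of 0.086 without knock-in replicate 1. Sorcs1, a sortilin-family receptor, was at 7.36, 3.60 and 7.55 FPKM in knock-in and 7.18, 7.88 and 7.82 FPKM in wild type. Its log2 difference of -0.32, the lowest of the list, was -0.028 without knock-in replicate 2.

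**Figure D4:**
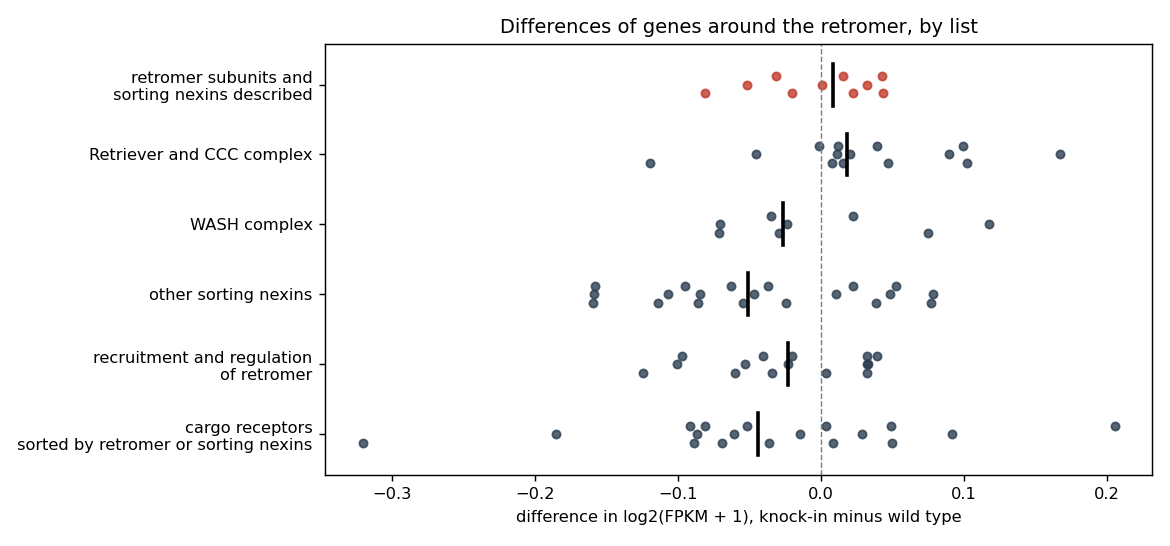
Difference in log2(FPKM + 1), knock-in minus wild type (horizontal axis), for each tested gene of 6 groups, with points for genes and a black line for the median of each group. The 10 genes described (top, red) lie between -0.08 and 0.04, and the lists below them have medians between -0.05 and 0.02.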

How the data were processed

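Per the file headers, the authors deposited 1 table of FPKM values with 6 library columns and Ensembl gene identifiers. All 6 columns were matched to samples by the codes in the labels. Per the labels' protocols, striatum was kept in RNAlater, RNA came from a miRNeasy kit and libraries from a TruSeq kit. The submitters' processing notes name FastQC, HISAT2, SAMtools and StringTie. Their versions, the build, the annotation and the strand setting: not given in the sources used here. The table holds 0 values of exactly 0. In a search for steps of whole reads, low values of genes with 1 annotated transcript came within 0.1 of a whole number for 46.5% to 48.5% at best. This share was above the 20% given with no steps in all 6 libraries, a sign of such steps in part of the values. Most values still lay farther from a whole number, so read counts were not recovered. The depth that gave the best share was similar between libraries but was not checked further. Precision therefore rests on the spread between libraries. Whether each sample is a different animal is not said in the labels. The p-values therefore reflect only how these samples vary, and that variation may be technical.

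Genotypes were compared on log2(FPKM + 1), which understates changes of low genes, with limma 3.58.1 (R 4.3.3; trended prior, robust, two-sided, Benjamini-Hochberg over the 14156 genes whose mean reached 1 FPKM). Adjusted p-values are from this model. Level ratios were compared by exact permutation (scipy 1.17.1). Of these steps, only the limma fit was tested on simulated data. All 10 genes were named; of each list at most 4 with the smallest p were eligible, other names being marked. An eligible cargo receptor is not reported here. The genes, lists and tests were chosen with earlier results of these data known. Positions and transcripts are from GENCODE M21 (GRCm38) by identifier, which matched 22972 of 23067, and may differ from the authors' annotation. List genes were matched by symbol, or by identifier where the table uses an older symbol. Protein sequences were not used here. Alternatives covered scaling, pseudocount, filters, variance model, the cortical covariate, the replicate block and each library left out.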

Additional observations from a re-analysis of the deposited data

How the results depend on the processing

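Over 15 alternatives for each of the 10 genes, 150 values in all, 0 were called, and 17 had a sign other than that of the designed comparison. The filter, variance model and replicate block settings leave the log2 difference unchanged by construction, so no sign could turn in them. Vps26b, Vps29 and Snx12 kept their sign throughout. With each library left out in turn, the count of genes called over the whole table ran from 3 to 14, and it was 11, 14 and 6 when replicate 1, 2 or 3 of the knock-in group was dropped and 8 when wild-type replicate 2 was. It was 9 without both libraries numbered 1, a setting added after the data were seen, against 3 in the designed comparison. With single libraries left out, the log2 difference ranged from -0.036 to 0.023 for Vps26a, -0.069 to 0.0080 for Snx1, -0.0010 to 0.10 for Snx2, -0.25 to 0.30 for Snx3, -0.011 to 0.061 for Snx5, -0.013 to 0.054 for Snx6, -0.12 to 0.032 for Snx27 and -0.16 to 0.0060 for Capzb. The ratio differences ranged from 0.029 (knock-in replicate 3 dropped) to 0.075 for Vps26a to Vps26b, with 0.083 and an exact permutation p of 0.1 after quantile normalization, from -0.12 to 0.0013 for Snx1 to Snx2, -0.017 to 0.063 for Snx5 to Snx6 and -0.18 to 0.39 for Snx3 to Snx12. Snx1 turned to 0.0045 with median-of-ratios scaling and 0.036 without both libraries numbered 1, where Capzb, an actin capping subunit, turned to 0.0465. With the cortical covariate Snx27 turned to 0.13, Ccdc22 to -0.065 (0.089 without it), Commd1 to -0.033 (0.10 without it) and Dnajc13 to 0.0059 (-0.097 without it). It kept the sign but moved Snx3 to 0.37 (0.022 without it), Snx2 to 0.11 (0.043), Vps35 to 0.18 (0.080), Kcnj9 to 0.036 (0.21) and Commd5 to 0.049 (0.17). The cause of these shifts was not tested. With the replicate block, 2 genes of the table and 0 of the 10 were called, and no call of the 10 genes or lists changed. Deviations of same-numbered libraries correlated at -0.01, -0.07 and 0.19 over genes, and those of unlike-numbered libraries at -0.18 to 0.21. Whether same-numbered samples share more than a number was not tested. With 3 libraries per genotype and no read counts, small differences may have gone undetected.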
